A study of Mus musculus with 4 samples.

Results

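Nfia, Nfib, Nfic, Nfix, Sox8, Sox9 and Zbtb20 are the 7 genes described here, out of 22690 rows of a table of normalized counts per gene, where their symbols matched 8 rows. The eighth is a further row named Zbtb20 (ENSMUSG00000036279), listed at 0 in all 4 libraries, and Zbtb20 below means ENSMUSG00000022708. RNA was sequenced from retinal cells of C57BL/6 mice at postnatal day 2, sorted by their 4N DNA content, that of cells which have copied their genome and not yet divided. The compared groups are GFP-positive cells labelled Casz1 cKO, a conditional knockout of the zinc finger factor Casz1 (2 libraries), and GFP-negative cells labelled wild type (WT, 2 libraries). The sorted fraction therefore changes together with the genotype. No source used here gives the Cre driver, the source of GFP or the number of animals per library, and p-values measure only the spread between these libraries. The column names carry 2 tags, written A and B, each on 1 library of each group.

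Nuclear factor I (NFI) proteins bind DNA as dimers, through a domain near the amino end that is alike in all family members, and they promote glial fates in many parts of the nervous system. In the mouse retina, Nfia, Nfib and Nfix become prominent in late-stage progenitors, the cells that give rise to rods, bipolar cells and Mueller glia. Sox8 and Sox9 belong to the SoxE group of HMG-box factors and are known from retinal progenitors and from Mueller glia. Zbtb20 is a BTB zinc finger repressor known from the developing hippocampus and from the making of cortical astrocytes. Casz1 is itself a temporal factor of mouse retinal progenitors.

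The NFI genes are related in sequence, which matters for telling their reads apart. The most alike coding stretch of Nfia, Nfic and Nfix within an exon is shown to let a reader see how far they differ, from GENCODE M21 on GRCm38. Each is 60 bases of exon 2, 5′ to 3′ along the gene, with bases that differ from Nfia in capitals, at chr4:97783118-97783177 on the plus strand for Nfia, chr10:81420703-81420762 on the minus strand for Nfic and chr8:84772220-84772279 on the minus strand for Nfix.
Nfia: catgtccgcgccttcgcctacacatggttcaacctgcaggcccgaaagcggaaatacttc
Nfic: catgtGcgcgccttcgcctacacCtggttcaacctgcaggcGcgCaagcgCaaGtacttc
Nfix: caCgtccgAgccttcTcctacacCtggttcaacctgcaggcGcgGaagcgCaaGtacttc
Nfic differed from Nfia at 6 bases and Nfix at 8, and the longest run either shared with Nfia here was 17 bases. The labels' protocols name a 50-base paired-end kit, and 0 words of 50 bases in the annotated transcripts of any of the 7 genes occurred in another of them. Words shared with other genes, on either strand, made up 0 of 11026 for Nfia, 0 of 15091 for Nfib, 24 of 6711 for Nfic, 100 of 7477 for Nfix, 0 of 4086 for Sox9 and 116 of 31277 for Zbtb20. Sox8 had the highest number, 280 of 3115 (8.99%), all shared with the antisense gene 2810468N07Rik, whose exons cover 329 bases of those of Sox8. Counting is not stated to use strand, so reads from that shared stretch cannot be told apart between the genes, while the other words of Sox8 were found in no other gene.

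RefSeq promoter windows (build GRCm38.p6) were found for 5 of the 7 genes, and none was found for Nfib or Sox9. Those of Nfia and Nfix were found and are not shown. Shown are the 250 bases before the RefSeq start of Nfic and Zbtb20, which were below WT in both cKO libraries, and of Sox8, whose cKO libraries lay farthest apart. The Sox8 window precedes the outer start of its gene in GENCODE, whereas those of Nfic and Zbtb20 lie inside the gene, before 1 internal transcript start, and their other starts are not shown. Capitals mark the NFI half-site TTGGC or the SOX core ACAAT on either strand. The windows lie at chr10:81427174-81427423 (minus strand), chr16:43247034-43247283 (plus strand) and chr17:25570687-25570936 (minus strand).
Nfic: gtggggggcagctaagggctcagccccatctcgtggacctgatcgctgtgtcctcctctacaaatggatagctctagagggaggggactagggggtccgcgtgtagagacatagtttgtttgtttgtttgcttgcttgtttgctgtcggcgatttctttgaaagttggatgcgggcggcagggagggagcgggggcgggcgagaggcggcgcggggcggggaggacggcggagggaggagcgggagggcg
Zbtb20: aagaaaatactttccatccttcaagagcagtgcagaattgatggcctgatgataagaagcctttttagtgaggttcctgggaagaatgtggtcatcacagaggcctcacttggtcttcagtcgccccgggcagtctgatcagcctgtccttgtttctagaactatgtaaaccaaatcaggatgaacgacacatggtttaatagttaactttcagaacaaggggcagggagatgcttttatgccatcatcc
Sox8: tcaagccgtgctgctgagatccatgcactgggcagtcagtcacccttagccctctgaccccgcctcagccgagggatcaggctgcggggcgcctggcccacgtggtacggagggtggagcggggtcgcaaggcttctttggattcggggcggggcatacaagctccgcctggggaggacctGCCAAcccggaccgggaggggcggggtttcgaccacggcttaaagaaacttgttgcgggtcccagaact
The Sox8 window held 1 half-site, on the minus strand, and no SOX core, while the windows of Nfic and Zbtb20 held neither. Of 32851 promoter windows of this length in the table, 41.5% held TTGGC and 27.7% held ACAAT on either strand, so a match or its absence is common. The G and C content was 63.2% for Nfic, 44.8% for Zbtb20 and 65.6% for Sox8, against a median of 52.4% over all windows.

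Reads in genes numbered 22326119 and 89473701 in cKO libraries A and B, against 75832360 and 83753377 in WT libraries A and B. Casz1, the targeted gene, had 8687 and 10772 normalized counts in cKO libraries A and B, against 13162 and 11995 in WT libraries A and B. Its cKO mean stood at 77.3% of WT, a log2 fold change of −0.38. It did not pass the test described below (limma, adjusted p = 0.771). Reads outside the deleted part can add to its count, and their part was not tested. cKO library A stood apart, with Pearson correlations of 0.902 to 0.918 with the others on the log2 scale across genes, against 0.988 to 0.993 among the others. All 13 progenitor markers were detected in every library, with summed normalized counts of 697111 and 578990 in cKO libraries A and B, against 509450 and 527579 in WT libraries A and B. Ccnd1 alone made up 388895 and 253407 of the cKO sums, and 235937 and 223698 of the WT sums. Without overlap, cKO lay above WT in 6 of the 13, against 17.2% of the genes tested below, and below WT in 0. Markers of some other cells moved with the groups. cKO lay below WT without overlap in 12 of 12 microglial, 9 of 10 rod and 5 of 8 astrocyte markers, against 22.3% of the genes tested below. That held for 1 of 6 amacrine, 2 of 7 endothelial and mural and 0 of 3 oligodendrocyte lineage markers tested. Among these markers of other cells, 1 endothelial or mural marker lay above WT without overlap. The 12 microglial markers were all lower in cKO, with sums of 1224 and 8756 in cKO libraries A and B, against 20617 and 19450 in WT libraries A and B, and Aif1 was at 0 in cKO library A. The 10 rod markers, 9 of them lower in cKO, had sums of 51195 and 59651 in cKO libraries A and B, against 98476 and 88867 in WT libraries A and B. The 8 astrocyte markers, all lower in cKO, had sums of 3909 and 3129 in cKO libraries A and B, against 5134 and 4043 in WT libraries A and B, and S100b was at 0 in cKO library A. In sorted pools of cells, fewer cells of a type and less RNA per cell cannot be told apart, and the part of these cells in the values below was not tested.

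Sox9 was higher, and Nfic and Zbtb20 lower, in both cKO libraries than in both WT libraries, while Nfia, Nfib, Nfix and Sox8 overlapped between the groups. No gene of the 7 passed the test across all genes. The test was limma on log2(normalized count + 1) over 14480 genes with a mean of at least 10, two-sided, with Benjamini-Hochberg adjustment at 0.05, and it called 0% of all genes (274 had an unadjusted p under 0.05). Count tests run on recovered reads called 0% of genes (edgeR) and 0.00691% (DESeq2), with none of the 7 among them. Fold changes are differences of group means on that log2 scale. Groups that do not overlap were seen in 3 of the 7 genes, against 39.5% of the tested genes, so that share lies near the background. Of these, 1 had cKO above WT, against 17.2% of the tested genes, and 2 had cKO below WT, against 22.3%. The median log2 fold change of the 7 was −0.19, against −0.03 over all tested genes, and the median size without sign was 0.32, against 0.26.

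**Figure D1:**
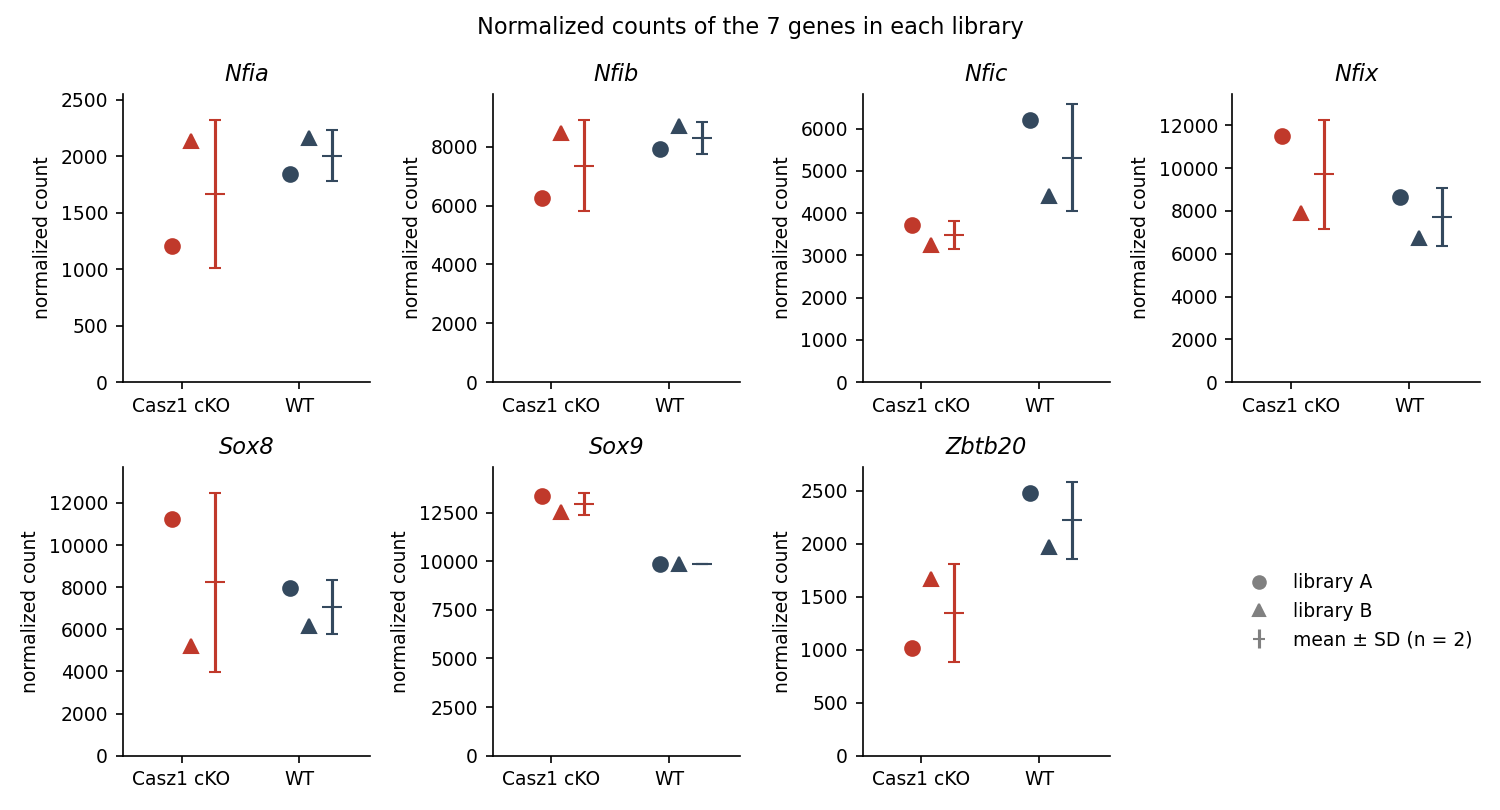
Normalized counts of the 7 genes in each library, with the Casz1 cKO group left and WT right in each panel, circles for library A and triangles for library B, and the mean ± SD (n = 2) beside them. Sox9 lay at 13336 and 12546 in cKO, above 9866 and 9843 in WT, while Nfic and Zbtb20 lay below WT in both cKO libraries and the other 4 genes overlapped.

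Among the SoxE factors, Sox9 (ENSMUSG00000000567, chromosome 11, 112782224 to 112787760 of GRCm38, plus strand) had 13336 and 12546 normalized counts in cKO libraries A and B, against 9866 and 9843 in WT libraries A and B. Both cKO libraries were above both WT libraries, and the libraries of each group lay close together. The means were 12941 ± 559 in cKO and 9854 ± 16.5 in WT (SD, n = 2 each), so cKO stood at 131% of WT. Its log2 fold change was 0.39 (standard error 0.17), with a 95% interval of −0.02 to 0.80 (limma, adjusted p = 0.771). The log2 fold change lay between 0.35 and 0.44 when any library was left out. Its sign could not change there, because the groups did not overlap.

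Sox8 (ENSMUSG00000024176, chromosome 17, 25565892 to 25570686 of GRCm38, minus strand) had 11221 and 5227 normalized counts in cKO libraries A and B, against 7964 and 6153 in WT libraries A and B. Its cKO libraries were the highest and the lowest of the 4, a 2.15-fold difference within the group, while the WT libraries differed 1.29-fold. Counting error was small beside that: the exact Poisson 95% intervals, which cover counting error only, were 10876 to 11573 in cKO library A and 5112 to 5343 in cKO library B. Its log2 fold change was 0.13 (standard error 0.38), with a 95% interval of −0.83 to 1.09 (limma, adjusted p = 0.904). It was −0.42 with cKO library A left out and 0.68 with cKO library B left out, where it passed (limma, adjusted p = 0.00539), and −0.06 without WT library B.

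Of the NFI genes, Nfic (ENSMUSG00000055053, chromosome 10, 81396186 to 81455635 of GRCm38, minus strand), the family member known for its part in tooth root formation, had 3719 and 3253 normalized counts in cKO libraries A and B, against 6209 and 4412 in WT libraries A and B. Both cKO libraries were below both WT libraries, and the larger spread was that of the WT pair. The means were 3486 ± 330 in cKO and 5310 ± 1271 in WT (SD, n = 2 each), or 65.6% of WT. Its log2 fold change was −0.59 (standard error 0.23), with a 95% interval of −1.16 to −0.02 (limma, adjusted p = 0.771). In the authors' deposited table Nfic had an adjusted p-value of 0.780 and the other 6 genes had 1.00, while 0.292% of rows (51 of 17477) were under 0.05. The p-value there was 0.00751 for Nfic and ran between 0.0824 for Sox8 and 0.858 for Nfib in the others, with 0.108 for Zbtb20. The log2 fold change of Nfic lay between −0.84 and −0.34 when any library was left out. Its sign could not change there, because the groups did not overlap.

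Nfix (ENSMUSG00000001911, chromosome 8, 84699876 to 84800344 of GRCm38, minus strand), a regulator of neural stem cell quiescence, had 11514 and 7912 normalized counts in cKO libraries A and B, against 8669 and 6742 in WT libraries A and B. The groups overlapped, since cKO library B lay between the WT libraries. Its log2 fold change was 0.32 (standard error 0.25), with a 95% interval of −0.31 to 0.95 (limma, adjusted p = 0.771). It was 0.05 with cKO library A left out and 0.59 with cKO library B left out, where it passed (limma, adjusted p = 0.0152). Its exons share 137 bases with those of the antisense gene G430095P16Rik, which had 44.7 and 25.8 normalized counts in cKO libraries A and B, against 18.2 and 22.1 in WT libraries A and B.

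Nfia and Nfib, the members best known for switching on glial fates, were close to WT in cKO library B and lower in cKO library A. Nfia (ENSMUSG00000028565, chromosome 4, 97772734 to 98118874 of GRCm38, plus strand) had 1204 and 2131 normalized counts in cKO libraries A and B, against 1845 and 2162 in WT libraries A and B. Nfib (ENSMUSG00000008575, chromosome 4, 82290173 to 82705750 of GRCm38, minus strand) had 6261 and 8461 normalized counts in cKO libraries A and B, against 7923 and 8689 in WT libraries A and B. In both genes cKO library A was the lowest of the 4 and cKO library B lay between the WT libraries. The log2 fold change of Nfia was −0.32 (standard error 0.31), with a 95% interval of −1.10 to 0.46 (limma, adjusted p = 0.771). That of Nfib was −0.19 (standard error 0.21), with a 95% interval of −0.72 to 0.34 (limma, adjusted p = 0.779). Without cKO library A the signs turned, to 0.09 for Nfia and 0.03 for Nfib, and without cKO library B Nfia passed at −0.73 (limma, adjusted p = 0.00709) and Nfib did not at −0.41 (limma, adjusted p = 0.0802).

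Zbtb20 (ENSMUSG00000022708, chromosome 16, 42875881 to 43642602 of GRCm38, plus strand) had 1020 and 1669 normalized counts in cKO libraries A and B, against 2475 and 1965 in WT libraries A and B. Both cKO libraries were below both WT libraries, with library A the lowest of the cKO pair and the highest of the WT pair. The means were 1344 ± 459 in cKO and 2220 ± 361 in WT (SD, n = 2 each), or 60.5% of WT. Its log2 fold change was −0.76 (standard error 0.30), with a 95% interval of −1.50 to −0.01, the largest in size of the 7 (limma, adjusted p = 0.771). It was −0.40 with cKO library A left out and −1.11 with cKO library B left out, where it passed (limma, adjusted p = 9.51e-05). An unadjusted p under 0.05 was found for Nfic and Zbtb20, 2 of the 7 genes, against 1.89% of the tested genes. These p-values lay near the threshold, at 0.0456 for Nfic and 0.0470 for Zbtb20 (limma), and depended on the setting. They were 0.0942 and 0.0989 in limma without the mean-dependent prior. With a block on the tags in limma they were 0.0137 and 0.0181.

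The calls made without cKO library B rest on cKO library A alone against the WT pair, with the lone library assumed to vary like that pair. In that fit 5 of the 7 genes passed, 2 higher and 3 lower, against 39.8% of all tested genes. Without cKO library A, 0 of the 7 passed, against 0.373% of all tested genes. Within a group, the 7 genes varied by a median log2 difference of 0.54 between cKO libraries and 0.33 between WT libraries. It was 0.42 and 0.20 over all tested genes, and 0.32 and 0.16 over those with a mean of at least 1000. Each of the 7 had such a mean. In both groups library A was above library B for Nfic, Nfix and Sox8, and below it for Nfia and Nfib. Sox9 was above by little, and its counting intervals overlapped in WT (9697 to 10037 and 9682 to 10005.5 normalized counts). The share of all tested genes with such a shared order was not counted. Across genes, libraries with the same tag deviated from their group means with a correlation of 0.258.

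**Figure D2:**
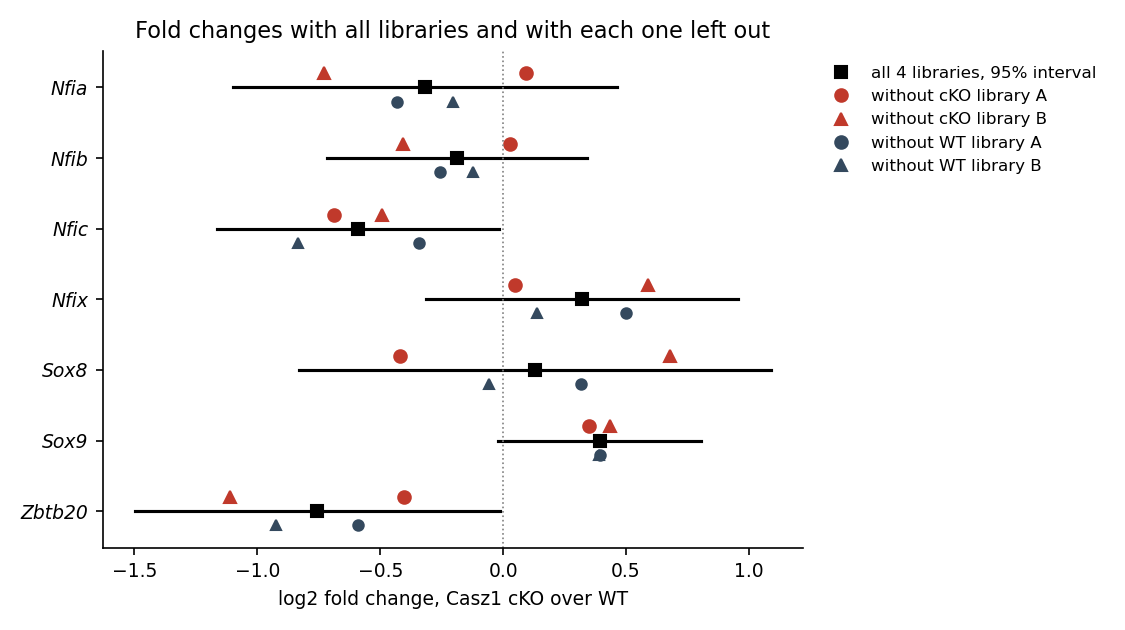
Log2 fold changes of Casz1 cKO over WT for each gene, with all 4 libraries (squares, lines for the 95% interval of limma) and with each library left out (circles for A, triangles for B, red for cKO and blue-grey for WT). Sox9 lay between 0.35 and 0.44 when any library was left out. Sox8 lay at −0.42 with cKO library A left out and at 0.68 with cKO library B left out. The signs of Sox9, Nfic and Zbtb20 could not change, because their groups did not overlap.

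**Figure D3:**
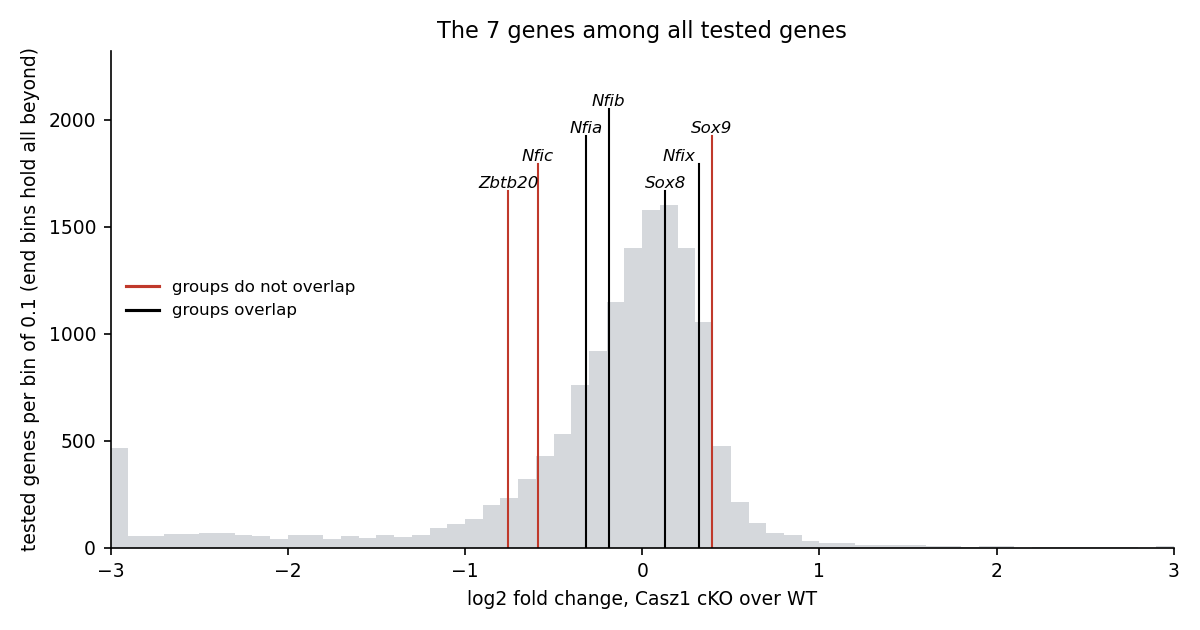
Log2 fold changes of Casz1 cKO over WT for the 14480 tested genes, counted in bins of 0.1 (grey), with a line at the value of each of the 7 genes, red where the groups did not overlap. The 7 values run between −0.76 for Zbtb20, at the 14.3 percentile of tested genes, and 0.39 for Sox9, at the 91.8 percentile, and the end bins hold all genes beyond them.

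Per length of exon, the SoxE genes had the highest levels and Zbtb20 the lowest, in both groups. Normalized counts per kilobase (kb) of merged exons in GENCODE M21 averaged 3130 ± 135 in cKO and 2383 ± 3.99 in WT for Sox9, and 2638 ± 1359 in cKO and 2264 ± 411 in WT for Sox8 (SD, n = 2 each). Sox9 and Sox8 did not differ beyond their spread in either group, and Sox8 was the higher in both A libraries. Nfix followed with 1321 ± 347 normalized counts per kb in cKO and 1048 ± 185 in WT (SD, n = 2 each). Nfic had 526 ± 49.7 in cKO and 801 ± 192 in WT, and Nfib had 492 ± 104 in cKO and 555 ± 36.2 in WT, in normalized counts per kb (SD, n = 2 each). Nfic and Nfib overlapped in cKO, and their order was the other way round with the longest transcript as the length, at 559 for Nfic and 808 for Nfib in cKO, against 851 and 911 in WT. Nfia had 153 ± 60.2 in cKO and 184 ± 20.6 in WT, and Zbtb20 had 43.7 ± 14.9 in cKO and 72.2 ± 11.7 in WT, in normalized counts per kb (SD, n = 2 each). Over the mean of all 4 libraries, Sox9 lay at the 92.8 percentile of tested genes in level per kb, Nfix at 80.0, Nfib at 59.5 and Zbtb20 at 20.7.

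Within the NFI family Nfix held a larger and Nfic a smaller share in both cKO libraries than in both WT libraries, while the summed level overlapped between the groups. Summed normalized counts of the 4 NFI genes were 22699 and 21756 in cKO libraries A and B, against 24646 and 22005 in WT libraries A and B. Of the summed NFI level per kb, Nfix held 59.0% and 46.2% in cKO libraries A and B, against 41.9% and 38.8% in WT libraries A and B. Nfic held 21.1% in each cKO library, against 33.3% and 28.2% in WT libraries A and B. Neither share overlapped between the groups, and these shares are a description with no test. Of 4 ratios between members, formed with the values known, Nfix over Nfic per kb was 2.79 and 2.19 in cKO libraries A and B, against 1.26 and 1.38 in WT libraries A and B. Sox9 over Sox8 per kb was 0.896 and 1.81 in cKO libraries A and B, against 0.934 and 1.21 in WT libraries A and B, so it was lower in the A library of each group. Nfib over Nfia per kb was 3.79 and 2.89 in cKO libraries A and B, against 3.13 and 2.93 in WT libraries A and B, and the groups overlapped. Nfix over Nfib per kb overlapped as well, at 3.74 and 1.90 in cKO libraries A and B, against 2.23 and 1.58 in WT libraries A and B.

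**Figure D4:**
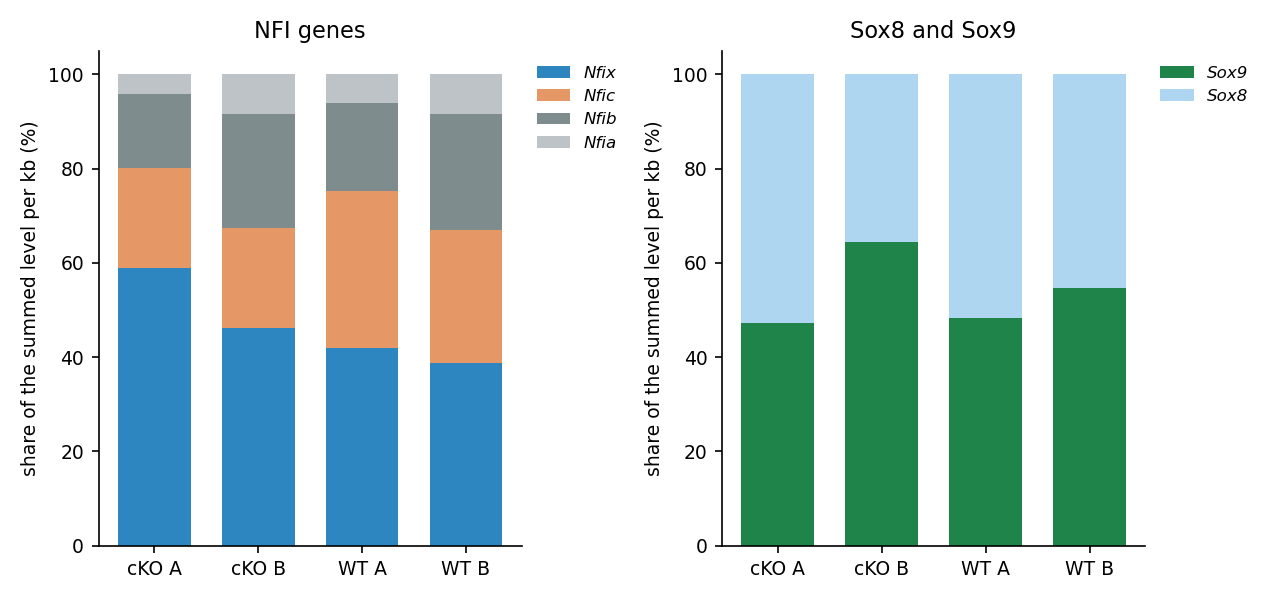
Share of the summed level per kb of exon held by each NFI gene (left) and by Sox8 and Sox9 (right) in each library, cKO libraries left of WT libraries. Nfic held 21.1% of the NFI level in both cKO libraries, below 33.3% and 28.2% in WT, and the Sox9 share was lower in the A library of each group.

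Genes tied to these factors by function or family did not pass either. The third SoxE gene, Sox10, a factor of oligodendrocytes and neural crest, had 0 and 5.29 normalized counts in cKO libraries A and B, against 22.8 and 5.52 in WT libraries A and B, and was under the filter. The SoxD genes, partners of SoxE factors in cartilage, had log2 fold changes of −0.10 for Sox13, 0.24 for Sox5 and 0.61 for Sox6. Of these 3, 2 were higher, 1 was lower and 0 passed (limma). Sox6 had 455 and 332 normalized counts in cKO libraries A and B, against 239 and 269 in WT libraries A and B. Without overlap, cKO lay above WT for Sox6 and below WT for Sox13. Of 11 SoxB, SoxC and SoxF genes 7 were tested, 4 higher and 3 lower, with a median log2 fold change of 0.12. That median was 0.02 without WT library A, 0.04 without cKO library B and 0.19 with either of the other libraries left out. In that list Sox4, of the SoxC group, had a log2 fold change of 0.24 and Sox2, a progenitor factor, had 0.12.

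Of 11 genes known as targets of SOX9 or NFIA in glia, or as glial genes that follow them, 4 were higher and 7 lower, 0 passed in limma, and 0 had an unadjusted p under 0.05. Their median log2 fold change was −0.20, and it was −0.31 without cKO library A, −0.04 without WT library A and −0.52 without WT library B. Groups that do not overlap were seen with cKO above WT in 1 of the 11, Glul, against 17.2% of the tested genes, and with cKO below WT in 6, against 22.3%. Those 6, named after their values were seen, were Mmd2, Zcchc24, Gfap, S100b, Sparcl1 and Aqp4, and Gfap, S100b and Aqp4 are also among the astrocyte markers. The count of 6 rests partly on few reads and on a small gap. In cKO library A, where 3 reads equal 8.38 normalized counts, S100b was at 0 and Aqp4 at 13.97. Zcchc24 had 1428 and 1373 normalized counts in cKO libraries A and B, against 1736 and 1436 in WT libraries A and B. Whether counting error covers these gaps was not tested. Mmd2, a target of NFIA and SOX9 in spinal cord glia, had 411 and 311 normalized counts in cKO libraries A and B, against 538 and 507 in WT libraries A and B. Apcdd1, of the same list, was not lower. It had 872 and 1039 normalized counts in cKO libraries A and B, against 864 and 928 in WT libraries A and B. Its groups overlapped, with a log2 fold change of 0.09. Slc1a3, the glutamate transporter of glia, had 36834 and 18370 normalized counts in cKO libraries A and B, against 22618 and 17862 in WT libraries A and B. Glul, glutamine synthetase, had 48239 and 36123 normalized counts in cKO libraries A and B, against 35019 and 33800 in WT libraries A and B. The log2 fold change was 0.28 for Glul and 0.37 for Slc1a3, whose groups overlapped. Of 12 matrix genes that SOX9 activates in cartilage 6 were tested, 4 higher and 2 lower, with a median log2 fold change of 0.22, which was −0.05 without cKO library A, 0.51 without cKO library B and 0.13 without WT library B. The chain of type II collagen Col2a1 had −0.02 and the type IX chain Col9a1 had 0.60 on the log2 scale (limma, adjusted p of each 0.771 or higher). Col11a1, a chain of type XI collagen chosen after its values were seen, had 3386 and 2304 normalized counts in cKO libraries A and B, against 1301 and 1124 in WT libraries A and B, a log2 fold change of 1.21 (limma, adjusted p = 0.771). Col11a2, of the same list, went the other way, also without overlap. It had 27.9 and 509 normalized counts in cKO libraries A and B, against 531 and 595 in WT libraries A and B. Its log2 fold change was −2.21 (limma, adjusted p = 0.771).

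Mueller glia genes numbered 19 tested of 20, 13 higher and 6 lower, 0 passed, with a median log2 fold change of 0.22, which was 0.02 without cKO library A and 0.13 without WT library A. Dkk3, a secreted protein of the Dickkopf family, had a log2 fold change of 0.35 and Notch1, the receptor, had −0.01. Genes of early progenitors, all 16 of them tested, were 5 higher and 11 lower, 0 passed, with a median of −0.29, which was −0.58 without cKO library B and −0.05 without cKO library A. Without overlap, cKO lay below WT in 7 of the 16, against 22.3% of the tested genes, and above WT in 2, against 17.2%. The count of 7 also rests partly on a small gap and on few reads. Igf2bp1 had 3258 and 4919 normalized counts in cKO libraries A and B, against 4932 and 5166 in WT libraries A and B. In cKO library A, Onecut1 was at 41.9 normalized counts, and Ikzf1 and Lin28a were each at 69.9. Whether counting error covers these gaps was not tested. The 2 early progenitor genes with the highest mean went against most of that list. They were Fgf15, a growth factor of retinal progenitors, at 0.44 and Hmga1, a chromatin protein, at 0.42. Progenitor markers were 11 higher and 2 lower of 13, 0 passed, with a median of 0.17, Ccnd1, a G1 cyclin, at 0.45 and Pax6, an eye field factor, at −0.15. Over all tested genes 6769 were higher and 7711 lower.

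The genes whose centred log2 profile over the 4 libraries lay nearest to each factor were found among 11818 genes with a mean of at least 100, by Euclidean distance. The nearest gene to Sox9 was Fgf14 at a distance of 0.04, to Sox8 Fkbpl at 0.08, to Nfic Trim65 at 0.05 and to Nfix Dapp1 at 0.03. The nearest to Nfia was N4bp2l2 at 0.02, to Nfib Nxf1 at 0.01 and to Zbtb20 Lifr at 0.04. Within a distance of 0.2 lay 953 genes for Nfib, 727 for Nfix, 424 for Nfia and 396 for Sox9, against 62 for Zbtb20, 38 for Sox8 and 18 for Nfic. With 4 libraries many genes share a profile, so a near gene is a description only.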

How the data were processed

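The deposited values are normalized counts, a signal per gene that the authors made, per the file headers, from read counts scaled by library. FastQC, TopHat, HTSeq, DESeq and mm10 are named by the submitters' processing notes, without versions or strand setting. Every value (100%) came to a whole number of reads within 0.01, so reads could be recovered, and 3 reads equal 1.98 to 8.38 normalized counts. The authors' p-values and adjusted p-values stand in the same deposited table. Both cKO columns are headed as replicate 2 and were assigned to their group only. Libraries of a group differed by far more than sampling noise (chi-square of 126 per degree of freedom for cKO, 74.1 for WT). Counting half-widths for the 7 genes were 1.43% to 10.4%.

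limma 3.58.1 in R 4.3.3 (mean-dependent prior, pseudocount 1, mean of at least 10) was tested on simulated data. The simulated spread was set without cKO library A, so it does not show how the test works at the spread of all 4 libraries. Alternatives were pseudocounts 0.5 and 5, no filter, a mean of at least 50, median and TMM rescaling, no trend, edgeR 4.0.16 and DESeq2 1.42.0 on recovered reads, a replicate block and leaving out each library with the tested genes kept. Lengths and positions are from GENCODE M21 (96.1% of identifiers found), sequences from GENCODE and RefSeq. The members and the 14 gene lists were chosen with earlier results of these data known. Named genes are the 7 members, Casz1, the genes of a list that passed or else its 2 highest by mean (given for lists tied to these factors), and the nearest profile of each member. Named beside these, after their values were seen, are genes that a count, an overlap, a direction or a family turns on. They are 2810468N07Rik, G430095P16Rik, Aif1, Sox6, Sox10, Nr2e3, Col11a1, Col11a2, Apcdd1, Igf2bp1, Onecut1, Ikzf1, Lin28a and the 6 glial genes below WT. Marker lists described in the results only by overlap had median log2 fold changes of −0.37 (endothelial and mural), −0.17 (amacrine) and 0.06 (oligodendrocyte lineage). Those of microglia, rods and astrocytes were −2.72, −0.80 and −0.59.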

Additional observations from a re-analysis of the deposited data

How the results depend on the processing

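Over 14 alternatives per gene, 89 of the 98 values of the 7 genes kept their sign and stayed without a call, 4 changed sign and 5 passed the threshold. The changes of sign were Nfia (0.093), Nfib (0.028) and Sox8 (−0.42) without cKO library A and Sox8 (−0.06) without WT library B. The passes all came without cKO library B. Leaving out each library in turn gave ranges of −0.73 to 0.093 for Nfia, −0.41 to 0.028 for Nfib, −0.84 to −0.34 for Nfic, 0.049 to 0.59 for Nfix, −0.42 to 0.68 for Sox8, 0.35 to 0.44 for Sox9 and −1.11 to −0.40 for Zbtb20, and −0.41 to 0.028 for the median of the 7. These fits set 1 library against 2, and the cause was not tested. Other pseudocounts, scalings and tools kept every sign, with Zbtb20 between −0.76 and −0.71 and Sox8 between 0.13 and 0.23. Some of the 98 values could not change sign. Other filters, limma without the trend and the replicate block leave the fold change of a gene the same. Leaving out a library cannot turn the sign of Nfic, Sox9 or Zbtb20, whose groups did not overlap. The count of genes called ranged from 0 to 1871 higher and 0 to 3897 lower when each library was left out (2 higher and 52 lower without cKO library A). On recovered reads the count was 0 with edgeR, where 208 genes had an unadjusted p under 0.05. It was 1 with DESeq2, the rod gene Nr2e3, lower, where 369 did. With the replicate block on the tags limma called 0 genes (1375 at an unadjusted p under 0.05) and the fold changes were the same, with an adjusted p of 0.426 for Nfic and Zbtb20 and 0.545 for Sox9. The labels do not say what the tags mean. Across genes, libraries that share a tag deviated from their group means with a correlation of 0.258. Depth is lowest in cKO library A, where Zbtb20 rests on 365 reads. Of 182 medians of the other 13 lists under these alternatives 9 changed sign. Without cKO library A these were −0.05 for the matrix genes, −0.055 for the SoxE and SoxD genes and 0.02 for amacrine genes. Without WT library A they were 0.04 for endothelial and mural genes and −0.10 for the oligodendrocyte lineage, which was −0.03 without cKO library B. With no filter on low values the matrix genes stood at −0.65 and the oligodendrocyte lineage at −1.13, and with a mean of at least 50 the endothelial and mural genes stood at 0.06. The microglial median was −1.15 without cKO library A and the astrocyte median −0.33 without WT library A.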
